A study of Homo sapiens with 2 samples.

Results

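C/D box small nucleolar RNA (snoRNA) genes, whose symbols start with SNORD, were examined in substate 1 and substate 2 cells of H9, an established human embryonic stem cell line. The members were the non-control probes of the array whose RefSeq noncoding RNA accession leads to a gene with such a symbol, which gave 189 of 58201 probes and 188 of the 22439 genes named on the array. SNORD3B-1, a copy of U3, had 2 probes, and every other gene had 1. The gene table used for the names held 362 SNORD genes, so 174 had no probe named here. The genes with a probe are 60 to 237 nucleotides long, with a median of 75.

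Both groups were H9 cells grown without feeders in TeSR-E8 medium. The paper describes both substates on Matrigel, a basement membrane extract, to which cells were moved from vitronectin at passage 35. Matrix or time on Matrigel therefore cannot be told apart from passage or substate. Substate 1 was the typical colony form with little vimentin, taken at passage 35, and substate 2 formed colonies with wide spaces between the cells and strong vimentin, taken at passage 50. Total RNA of each substate was labelled with Cy3 as complementary RNA and hybridised to 1 single-colour Agilent array. The comparison asked which SNORD probes were detected in each substate and how their signals differed.

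Because each substate had 1 array, no difference could be tested or checked against replicates, and the number of arrays limits the precision. Passage and substate cannot be told apart, and both came from 1 cell line. All 5 pluripotency markers (POU5F1, NANOG, SOX2, LIN28A and DNMT3B) were detected in both substates. The vimentin gene VIM stood at 3.16 in substate 1 cells and 5.68 in substate 2 cells on the normalised log2 scale, and CDH1, which codes for E-cadherin, had 4.91 and 3.44. Of 5 fibroblast genes, COL1A1, COL1A2 and THY1 were detected on both arrays, with differences (substate 2 minus substate 1, log2) of -0.49, -0.50 and -0.11, and LUM and DCN on neither. Of 3 endoderm genes, AFP and FOXA2 were detected on both, with differences of 0.46 and 0.77. The mesoderm gene MESP1 and the neural gene SOX1 were detected in substate 2 cells only, and SOX17, TBXT and PAX6 in neither substate. The part of these markers in the SNORD differences below was not tested.

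C/D box snoRNAs guide the 2′-O-methylation of ribosomal RNA, and a few of them, such as U3, take part in the cleavage of the ribosomal RNA precursor instead. In human cells most lie inside introns of host genes, many of which code for ribosomal proteins or for factors of ribosome synthesis, and are cut out of the spliced intron. Each mature snoRNA is held by the core proteins fibrillarin, NOP56, NOP58 and SNU13, which protect its ends. The labelling kit used here starts from poly(A) tails, which mature snoRNAs generally lack. Whether a SNORD probe read the mature snoRNA, its host's precursor RNA or another transcript was not tested. Fewer cells of a type and less RNA per cell cannot be told apart in these bulk samples.

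Hosts of snoRNAs often carry a run of pyrimidines at the start of the transcript, the mark of messenger RNAs of the translation machinery. The starts of the 6 hosts that had at least 4 measured SNORD probes and an entry in the RefSeq promoter table (GRCh38.p14) are shown. These hosts are among those compared with their SNORD probes below. Each line holds 20 bases before and 10 bases from the annotated start, in the direction of transcription, and capitals mark a C at the start with at least 4 pyrimidines (C or T) after it.
RPL13A, chr19:49487588-49487617, plus strand: ccctgcgacaaaacctcctcCTTTTCCaag
RPL7A, chr9:133348198-133348227, plus strand: attacccacaattccctttcCTTTCTCTCT
RPL4, chr15:66504846-66504875, minus strand: acatatacagcgggagtggtaagcacttcc
NOP56, chr20:2652612-2652641, plus strand: cgccggagcgcgctagccgcattgcgagcc
SNHG1, chr11:62855876-62855905, minus strand: tctccccggggagattcgttctcatttttc
GAS5, chr1:173869036-173869065, minus strand: gtcgatgccatcatgaattcagatgtgttt
RPL13A and RPL7A had the run at the annotated start, where it was 7 and 16 bases long, the latter reaching past the window shown. The letters were not found at the annotated start of the other 4 hosts. Of 56 hosts with an entry, 16 had the run at the annotated start (28.6%), against 1104 of 27305 genes in the table (4.04%).

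SNORD probes were well above background in most cases, with the copies of 3 imprinted families as the exception. On the substate 1 array 137 of 189 probes were detected (72.5%), where 55.6% of all probes were, and on the substate 2 array 134 of 189 (70.9%), where 52.8% of all probes were. Both arrays detected 133 probes (70.4%), beside 51.3% of all probes. Outside the SNORD113, SNORD114, SNORD115 and SNORD116 copies 128 of 132 probes were detected in substate 1 cells and 125 of 132 in substate 2 cells. Single genes of the imprinted regions stay among the 132. Over those 132 probes the processed signal had a median of 305.8 in substate 1 cells and 211.1 in substate 2 cells.

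The imprinted families are arrays of near-identical copies, so a probe of one copy can also bind others and the copies are not separate members. SNORD113 and SNORD114 lie in the maternally expressed 14q32 region, and none of their 37 probes was well above background on either array. Their signals ran from 2.84 to 7.65 in substate 1 cells (median 3.43) and from 2.97 to 12.8 in substate 2 cells (median 3.68). MEG3, a noncoding RNA of the same region, had 2 probes measured on both arrays, at -3.93 and -4.11 in substate 1 cells and at -3.74 and -3.19 in substate 2 cells on the normalised log2 scale. Another MEG3 probe was well above background in substate 1 cells only, at -3.59 against -4.60, and was at least 1.52-fold lower in substate 2 cells, and the other 3 of its 6 probes were detected on neither array. SNORD112 and the gene that spans it, RTL1, were detected on neither array.

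SNORD115 and SNORD116 lie in the paternally expressed 15q11-q13 region, whose loss causes Prader-Willi syndrome. None of the 10 SNORD115 probes was well above background on either array, with signals from 3.07 to 10.8 in substate 1 cells and from 3.23 to 6.47 in substate 2 cells. SNORD115 is known as a family expressed in brain. In contrast, 9 of the 10 SNORD116 probes were detected on both arrays, and SNORD116-10, with signals of 9.94 and 12.2, was detected on neither.

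**Figure D1:**
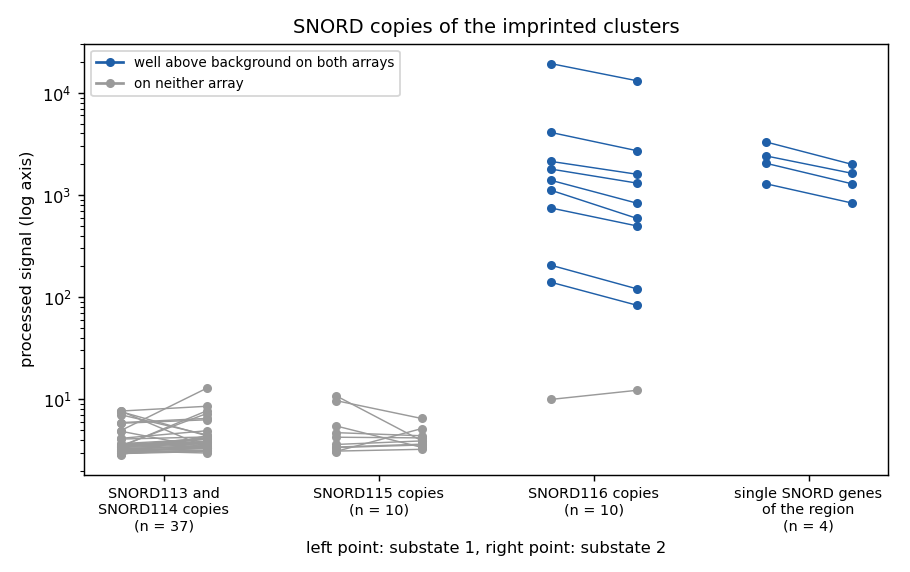
Processed signal (log axis) of each probe of the imprinted SNORD families in substate 1 cells (left point) and substate 2 cells (right point), joined by a line, with no replicate. The signals are not shifted for array brightness, and the substate 2 array was the dimmer. Probes of SNORD113, SNORD114 and SNORD115 lie at or below 12.8 on both arrays, whereas 9 of 10 SNORD116 probes and the 4 single SNORD genes of the same region lie at or above 83.3 and slope down.

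Among probes measured on both arrays, SNORD signals were lower in substate 2 cells almost throughout. The difference (substate 2 minus substate 1, log2, each array shifted by its 75th percentile) was below 0 for 127 of 133 SNORD probes (95.5%), where 44.0% of all 29883 measured probes were below 0. The median over the SNORD probes was -0.41 (1.32-fold lower), with quartiles of -0.54 and -0.27 and a range of -1.14 to 0.14. Over all measured probes the median was 0.06. The 124 probes other than SNORD116 had a median of -0.40, and 118 of them were lower.

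The shift was broad and small. Of the 133 probes 22 were at least 1.5-fold lower (6.37% of all measured probes were) and 0 at least 1.5-fold higher (4.68% of all were). At least 2-fold lower were 2 probes, beside 1.26% of all probes, and none was 2-fold higher, beside 0.850% of all. When the measured SNORD probes were split by mean signal into 4 parts of 33 or 34 probes, their median was -0.47, -0.40, -0.39 and -0.37 from the dimmest to the brightest part, and that of all other probes in the same ranges of signal -0.04, 0.00, 0.05 and 0.14. Measured members lay on 20 chromosomes, of which 10 had at least 5 measured members, and the median was below 0 on all 20.

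The scatter between spots within an array was smaller than most of these differences. Probes that the design prints several times gave an SD of 0.069 on the log2 scale for a difference between single spots, or 0.17 for dim probes with a normalised log2 signal below 0. The SD for dim probes rested on 22 of 293 such probes on the substate 1 array and 19 of 291 on the substate 2 array. By the SD that applied to each, 108 of the 133 SNORD probes were lower by more than 2 SD, where 6566 of all 29883 measured probes were (22%). None was higher by more than that, where 32.1% of all were, and 25 were within it. Variation between cultures, RNA preparations or labelling reactions is not part of this SD.

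**Figure D2:**
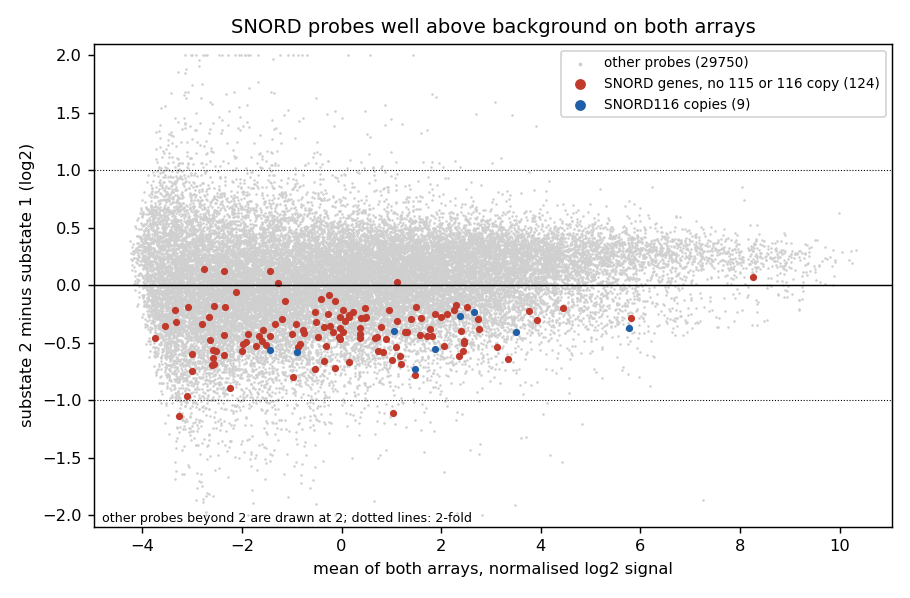
Difference between the substates (log2, substate 2 minus substate 1) against the mean normalised log2 signal for the probes measured on both arrays, with other probes in grey, SNORD genes in red and SNORD116 copies in blue. The SNORD points form a band below 0 over the whole range of signals, with 6 of 133 above 0 and 2 beyond the lower 2-fold line.

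Several values moved with this shift, and their part in it was not tested. The substate 2 array was the dimmer, with 54.7% of spots well above background against 57.4% and a 75th percentile of the signal of 275.4 against 313.7. Of the 189 SNORD probes 183 belonged to 1 series of probe names on the array. Measured SNORD probes of that series had a median difference of -0.41 (127 probes) and those of other series -0.29 (6 probes, 5 lower), while the 281 measured probes of the series that were not for snoRNAs or small Cajal body RNAs had a median of 0.02. Probes for ribosomal RNA went in different directions. That of 5.8S RNA (RNA5-8SN5) had a log2 signal of 8.19 and 6.32, a difference of -1.86, that of 18S RNA (RNA18SN5) 6.15 and 5.38, and that of 28S RNA (RNA28SN5) 10.08 and 10.30, a difference of 0.22 that became -0.02 under loess centring.

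SNORD126 and SNORD5 were the furthest below 0, both past 2-fold on the main scale. Under normexp background correction 0 SNORD probes were 2-fold lower. SNORD126 was dim, and the lowest detected value on the substate 2 array was -4.20. On the normalised log2 scale, SNORD126 stood at -2.68 in substate 1 cells and -3.82 in substate 2 cells, a difference of -1.14 (2.20-fold lower). It lies on chromosome 14 within CCNB1IP1, a ubiquitin ligase gene, whose own probe had a difference of 0.14 (-0.03 under centring by loess on mean signal, since bright probes as a whole were higher in substate 2 cells). SNORD5, on chromosome 11, had 1.59 and 0.48, a difference of -1.11 (2.16-fold lower). Its host TAF1D, a subunit of the RNA polymerase I selectivity factor, had -0.47, and SNORD6 of the same host had -0.23. Differences of host genes are given below on the main scale, on which small values above 0 in bright genes can fall below 0 under loess centring.

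Next in size were SNORD19B, SNORD75 and SNORD11B, none of which reached 2-fold. SNORD19B, in the nucleostemin gene GNL3, had -2.62 in substate 1 cells and -3.58 in substate 2 cells, while GNL3 differed by 0.11. SNORD75, in the noncoding RNA GAS5, had -1.79 and -2.68, while GAS5 differed by -0.23. SNORD11B had -0.58 and -1.38, and its host NOP58, itself a core protein of the C/D box particle, differed by 0.17.

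The 6 SNORD probes above 0 were higher by at most 0.14. SNORD117, in the RNA helicase gene DDX39B, had -2.83 in substate 1 cells and -2.69 in substate 2 cells, while DDX39B differed by 0.50. SNORD66, in the translation initiation factor gene EIF4G1 (difference 0.33), had -2.42 and -2.30, and SNORD77, in GAS5, had -1.49 and -1.37. SNORD105B, in PPAN, a gene of ribosome synthesis (difference 0.40), had 1.09 and 1.12, and SNORD56B, in SIPA1L1 (difference -0.19), had -1.28 and -1.27. All 6 lay within 2 SD of the spot scatter.

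U3 and U22, which act in the processing of the ribosomal RNA precursor rather than as methylation guides, had probes on both arrays. The 2 probes of the U3 copy SNORD3B-1 disagreed, with log2 signals of 8.22 and 8.29 for one and 5.95 and 5.67 for the other, hence differences of 0.07 and -0.28. U3 has several near-identical copies in the genome, and the signal cannot be given to 1 of them. Under loess centring the U3 differences became -0.14 and -0.45, and SNORD105B went to -0.02. SNORD22 (U22), in the noncoding RNA SNHG1, had 2.59 and 2.19, a difference of -0.40. No probe was named here for U8, U13 or U14.

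Probes of 5 SNORD genes were well above background on 1 array only, so the difference has only a bound. On the substate 1 array alone were SNORD61, SNORD9, SNORD111B and SNORD119. SNORD61, in the gene of the RNA-binding protein RBMX, had -2.83 and was at least 2.58-fold lower in substate 2 cells, whereas the 3 RBMX probes differed by 0.17, 0.39 and 0.26. SNORD9, in the chromatin remodeller gene CHD8 (difference 0.12), was at least 2.29-fold lower. SNORD111B, in the splicing factor gene SF3B3, was at least 1.81-fold lower and SNORD119, in SNRPB (difference 0.34), at least 1.65-fold. SNORD127, in PRPF39 (difference -0.18), was the one detected in substate 2 cells alone and was at least 1.26-fold higher there. By these bounds 2 members were at least 2-fold lower, where 5.33% of the 3283 probes measured on 1 array were, and 0 at least 2-fold higher, where 7.92% were.

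The Z-score used by the study, the difference less its mean over all probes and divided by its SD, passed 2 in either direction for 7 SNORD probes, or 3.70% of 189, against 6.33% of all probes. With a mean of 0.07 and an SD of 0.63, the limits lay at log2 differences of 1.34 and -1.19, so that a shift of the size seen in most SNORD probes does not reach them. None of the 7 was measured on both arrays. SNORD61, SNORD9 and SNORD111B were measured in substate 1 cells alone, and SNORD20, SNORD113-6, SNORD114-2 and SNORD115-7 on neither array.

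The SNORD116 copies and the single SNORD genes of 15q11-q13 were lower in substate 2 cells in every case. The 9 measured copies had a median difference of -0.41 and a range of -0.73 (SNORD116-12, with processed signals of 1115 and 591.4) to -0.23 (SNORD116-26, with log2 signals of 2.77 and 2.54). The brightest probe, of SNORD116-19, had 5.95 and 5.58, and that of SNORD116-13, the dimmest of the 9, had -1.16 and -1.72. SNORD116-6 had 3.71 and 3.30, SNORD116-11 had 2.15 and 1.60, and SNORD116-29 had 1.25 and 0.86. SNORD116-27 had 2.52 and 2.25, and SNORD116-28 had -0.61 and -1.19. No copy was higher in substate 2 cells, and 1 of the 9 was at least 1.5-fold lower.

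Transcripts of the same region did not all move alike. SNORD64 (2.95 and 2.57), SNORD107 (2.04 and 1.60), SNORD108 (3.40 and 2.86) and SNORD109B (2.71 and 2.23) differed by -0.38 to -0.54. The noncoding RNA IPW, which lies beyond the SNORD116 copies, had 3 probes with differences of -0.30, -0.46 and -0.46, and PWAR5 had -0.34. SNURF and SNRPN, which share the imprinted promoter at the upstream end of the long transcript, differed by 0.17 and 0.22, which became 0.01 and 0.06 under loess centring. No probe was named here for SNHG14, the host transcript.

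SNORD probes were lower in substate 2 cells with each kind of host. A gene whose span held the SNORD gene was found for 129 of the 132 probes outside the SNORD113, SNORD114, SNORD115 and SNORD116 copies. All 34 measured SNORD probes in ribosomal protein genes were lower, with a median of -0.44. In other protein-coding genes 47 of 51 were lower, with a median of -0.32, and in noncoding genes 35 of 36, with a median of -0.45. The 3 probes with no host, 2 of them for U3, had a median of -0.28.

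**Figure D3:**
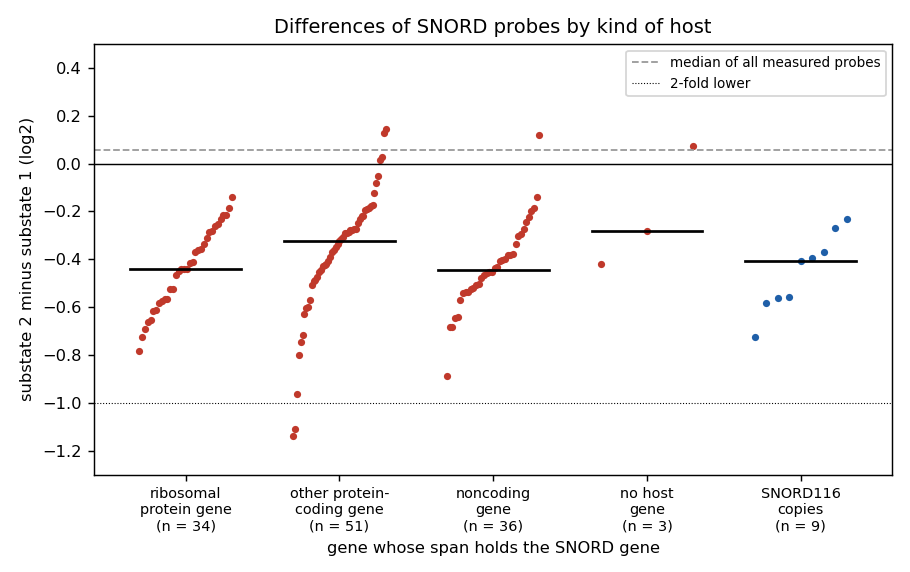
Difference between the substates (log2, substate 2 minus substate 1) of each measured SNORD probe, sorted within the kind of gene that holds it, with black bars at the medians and 1 array per substate. All 34 probes in ribosomal protein genes and all 9 SNORD116 probes lie below 0, and the medians run from -0.45 to -0.28.

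Host genes lay above their SNORD genes, with a direction of their own that depended on the scaling. Of 62 hosts with a measured probe 44 were higher in substate 2 cells and 18 lower, with a median of 0.17. Of all 16001 measured genes 59.8% were higher, and their median was 0.08. Under loess centring 30 were higher with a median of -0.012, and under quantile normalisation 33 with a median of 0.014. The 14 ribosomal protein hosts were all higher, with a median of 0.20, though 8 of 14 were higher under loess centring (median 0.04) and 9 of 14 under quantile normalisation (median 0.06). The 92 ribosomal protein genes measured had a median of 0.21, or 0.02 under loess centring. Of the 10 noncoding hosts outside SNORD116 with a measured value 7 were lower, with a median of -0.14, and 9 under loess centring, with a median of -0.30. A probe of the host reads spliced exons, as a rule, and a SNORD probe lies in an intron.

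Set against its own host within the same pair of arrays, the SNORD probe was lower for 105 of 113 probes. Against the median of all measured probes, 129 of the 133 measured SNORD probes were lower, so this count is not particular to the own host. The median of the SNORD difference minus the host difference was -0.49, with a range of -1.27 to 0.35, and 74 SNORD probes were lower while their host was higher (46 under loess centring and 54 under quantile normalisation). Under the other scalings tried, 102 to 106 of the 113 were below their host, with medians of -0.49 to -0.33. The host differences ran from -0.47 (TAF1D) to 0.50 (DDX39B). Over the 58 hosts with a measured SNORD probe, the median SNORD difference had a Pearson r of 0.30 with the host difference, given as a description because hosts share the arrays and are not replicates.

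Hosts that hold several SNORD genes show the spread within 1 transcript. There were 14 hosts with at least 3 measured SNORD probes, and the median of each family was below 0, from -0.52 (GAS5) to -0.18 (RABGGTB). SNHG1, a noncoding RNA, held 8 SNORD genes, with differences of -0.54 to -0.14, while SNHG1 itself differed by -0.23. GAS5 held 7, from -0.89 (SNORD75) to 0.12 (SNORD77), around a host difference of -0.23. In 13 of the 14 families every member was lower, GAS5 being the exception through SNORD77.

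In ribosomal protein hosts the SNORD probes lay well below the gene, whichever way the gene itself went. In RPL13A the 4 SNORD probes differed by -0.66 to -0.25 and the gene by 0.29. In RPL7A they differed by -0.62 to -0.22 and the gene by 0.28, and in RPL23A by -0.73 to -0.14 and the gene by 0.29. RPL4 had -0.65 to -0.19 with a gene difference of 0.18. All 4 SNORD probes lay below the gene in each of these 4 hosts. Under loess centring RPL4 turned to -0.03, and RPL13A, RPL7A and RPL23A fell to 0.08, 0.05 and 0.09.

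Other hosts gave varied values. In SNHG16, a noncoding RNA, the 3 SNORD probes differed by -0.52 to -0.38 and the gene by 0.25, or 0.08 under loess centring. In NOP56, which codes for a core protein of the particle, the 4 SNORD probes differed by -0.31 to -0.19, and the 2 probes of the gene disagreed at 0.43 and -0.16 (mean 0.14, or -0.02 under loess centring). ZFAS1, a noncoding RNA, differed by -0.07 and its SNORD12 family by -0.40 to -0.27. In RABGGTB, a subunit of a prenyl transferase, 1 of 3 SNORD probes lay below the gene, which differed by -0.18. SNHG5, a noncoding host with no measured SNORD probe here, had 6 probes that differed by 0.01 to 0.05, though their mean was -0.14 under loess centring.

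**Figure D4:**
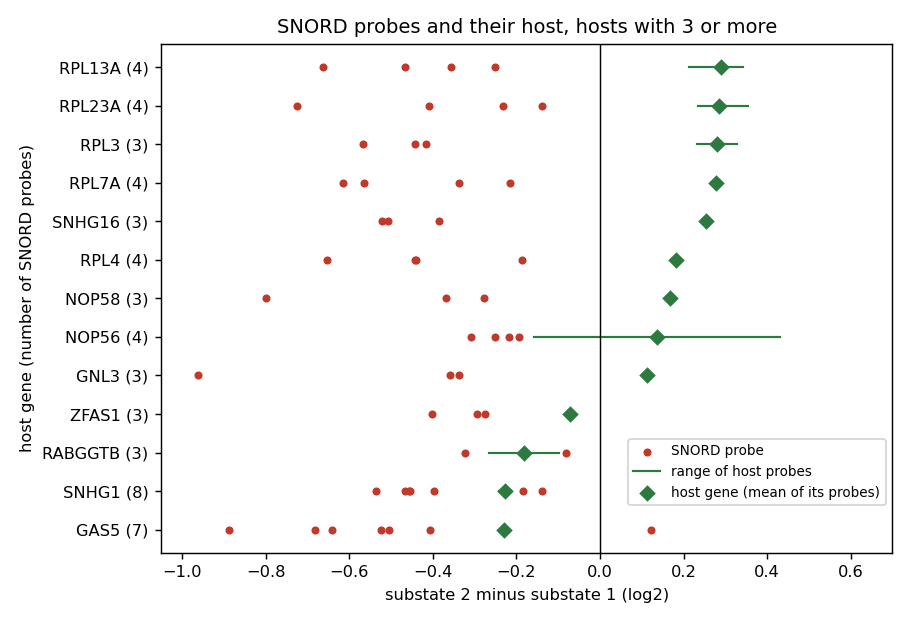
Difference between the substates (log2, substate 2 minus substate 1) of each measured SNORD probe (red) and of the host gene (green diamond, mean of its probes, with a line over their range) for 13 of the 14 hosts with 3 or more SNORD probes. In 9 of them the diamond lies right of 0 and every red point left of it (5 hosts under loess centring), and in GAS5 1 point, SNORD77, lies right of 0.

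SNORD probes were lower whether or not the run of pyrimidines shown above for RPL13A and RPL7A was found at the host's annotated start. Those whose host had the run had a median difference of -0.39, all 31 being lower. Where the host lacked it at the annotated start the median was -0.42, with 68 of 73 lower. A run at another start of the host would have been missed, so the split cannot decide whether the run bears on the difference.

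Genes of the C/D box particle, its assembly and its maturation were higher or near 0 in substate 2 cells. All 23 genes of the list of core proteins, assembly factors, maturation factors and U3 proteins were measured, and all 23 were higher, where 59.8% of all measured genes were, with a median of 0.25 and a range of 0.00 to 0.42. Under loess centring 18 of 23 were higher and the median was 0.19. FBL, which codes for the methyltransferase fibrillarin, had log2 signals of 8.23 and 8.39, and NOP58 had 5.91 and 6.08, differences of 0.16 and 0.17 that became -0.05 and -0.01 under loess centring. The 2 probes of SNU13, whose protein binds the snoRNA first, differed by 0.28 and 0.51. NOP56 had 0.14, or -0.02 under loess centring. The 4 core genes had a median of 0.16, the 8 assembly genes 0.23, the 6 maturation and traffic genes 0.23 and the 5 U3 particle genes 0.32.

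Small RNAs related to the SNORD genes were mostly lower as well. The 95 measured probes of H/ACA box genes (SNORA), which guide the change of uridine to pseudouridine, had a median of -0.24, with 78 lower (74 to 81 over the scalings). The 22 measured probes of small Cajal body RNAs (SCARNA), which guide changes of spliceosomal RNAs, had a median of -0.27, with 17 lower (14 to 17 over the scalings).

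**Figure D5:**
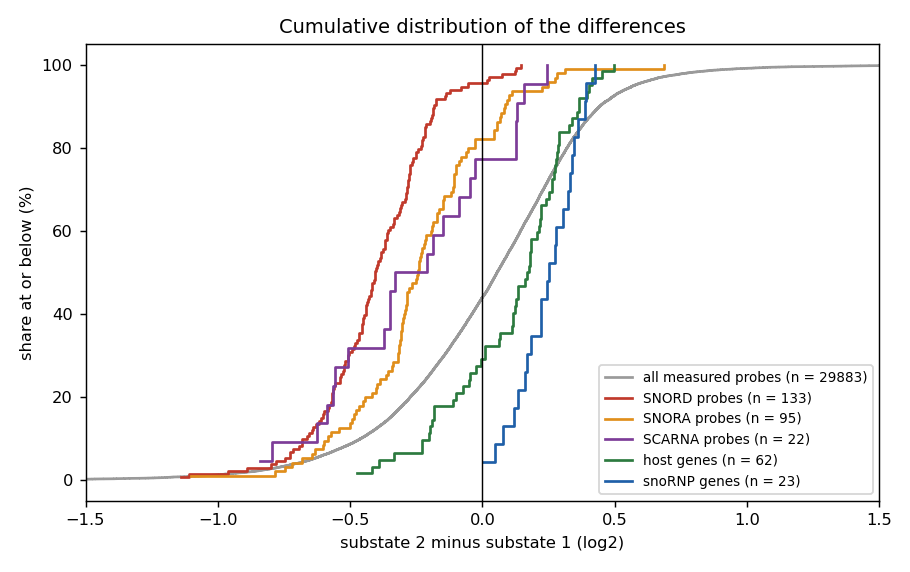
Cumulative share (%) of probes or genes at or below each difference between the substates (log2, substate 2 minus substate 1). Curves are for SNORD, SNORA and SCARNA probes, host genes, genes of the C/D box particle with its assembly and maturation, and all measured probes. The SNORD curve crosses its middle at -0.41 and those of SNORA and SCARNA at -0.24 and -0.27, left of the curve of all probes (0.06). The curve of the particle, assembly and maturation genes lies to the right with a median of 0.25 (0.19 under loess centring).

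Several snoRNAs serve as references in quantitative PCR of small RNAs. A list of 8 of them with a probe here was looked at, which does not cover all in use. All 7 of the list that were measured on both arrays were lower in substate 2 cells, where 95.5% of all measured SNORD probes were. Their median was -0.34, with a range within the list of -0.69 (SNORD72) to -0.20 (SNORD48). SNORD44 had log2 signals of -0.04 and -0.56, and SNORD95 had 0.58 and 0.16. SNORD24, SNORD68 and SNORD96A differed by -0.34, -0.28 and -0.27, and the other, SNORD61, is given above by its bound.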

How the data were processed

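RNA of H9 substate 1 and substate 2 cells was measured on 1 array each, both on the same slide and in the same scan. The authors deposited scanner tables that give the intensity of each spot. According to their headers, Feature Extraction 11.5.1.1 (protocol GE1_1105_Oct12) subtracted background and removed spatial trends. A matrix of log2 values was deposited as well, shifted by each array's 75th percentile per their methods, whose differences were those computed here up to 1 constant.

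Processed signals were set to at least 1 (this changed 0 members), log2 transformed, averaged over a probe's spots and shifted by the 75th percentile of all non-control probes. No spot was saturated. A probe was measured where its spots were flagged well above background. For a probe measured on 1 array, the bound is the bright value less either the faintest detected value of the other array or the value read there, whichever was higher. Gene values are means over the gene's measured probes. Names came from RefSeq accessions in a gene table of GRCh38.p14, which named 31104 probes, so that probes annotated otherwise are not counted. The array was annotated on hg19, and coordinates are given only for sequences of that table's assembly. A host was the shortest gene span that holds the SNORD gene, without readthrough genes. The table gave no strand for SNORD genes, so hosts on the other strand could not be left out. One host of several SNORD genes is not reported here by name. Tools were Python 3.11.15, numpy 2.4.6, pandas 2.3.3, statsmodels 0.14.6, R 4.3.3 and limma 3.58.1, and the scripts were tested on simulated data.

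The members and gene lists were chosen with earlier results of these data known. Named were SNORD genes past 2-fold, the 5 largest differences and bounds in each direction, the snoRNAs U3, U8, U13, U14 and U22, their hosts, fixed hosts (GAS5, SNHG1, SNHG5, ZFAS1 and SNHG14) and imprinted neighbours (SNURF, SNRPN, IPW, MEG3 and MEG8, which had no named probe), and the core proteins. The SNORD116 copies and neighbours shown one by one, the other hosts of 3 or more SNORD genes, the reference snoRNAs (SNORD24, SNORD44, SNORD48, SNORD61, SNORD68, SNORD72, SNORD95 and SNORD96A), the SNORA, SCARNA and ribosomal RNA probes and the other small RNAs were picked after values were seen. The alternatives tried were quantile normalisation, centring on the median, loess (span 0.3), normexp background correction (offset 50), another detection flag, a 1.5-fold limit, the series matrix, SNORD113 and SNORD114 set apart, and another basis for the Z-score.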

Additional observations from a re-analysis of the deposited data

How the results depend on the processing

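The medians and counts for SNORD probes kept their direction under the alternatives run. SNORD probes below 0 numbered 123 to 129 of 133 over the scalings, and their median less that of all probes was -0.46 to -0.33. Medians that moved by more than 0.069, the SD of a difference between single spots, and counts that moved by more than 1.5 times are given next for the results fixed in the design, and the cause was not tested. The SNORD116 median was -0.52 under quantile normalisation and -0.53 under loess, and the host median was 0.014 under quantile normalisation and reversed to -0.012 under loess. Normexp correction adds an offset of 50 to every signal and so compresses dim probes. Under it the median of SNORD probes other than SNORD116 was -0.25, and that of the particle, assembly and maturation genes was 0.17. Under it 0 SNORD probes were 2-fold lower and 36 passed a Z-score of 2. The median of SNORD minus host differences went from -0.49 to -0.37 under quantile normalisation, -0.35 under loess and -0.33 under normexp, and the SCARNA median from -0.27 to -0.14 under normexp. With the 1.5-fold limit 22 probes were lower, and with the mean and SD of probes measured on both arrays 17 passed a Z-score of 2. Within 1.5 times, the positive and significant flag detected 153 and 151 SNORD probes in place of 137 and 134. No share over all probes is given here for the normexp counts of 0 and 36 or for the counts of 17, 153 and 151. Whether they are particular to SNORD probes therefore cannot be read from them. No paired analysis was possible because the groups consist of 1 array apiece. For the same reason no replicate could be left out. Members could not be taken from a gene name column, since the scanner tables used here had none, and normexp used the median spot signal because no mean signal column was present. Dim signals limit the 5 SNORD genes measured on 1 array and the 51 probes measured on neither, for which no difference is given.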

Other observations

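Small RNAs of other kinds differed in both directions between the substates. The vault RNAs VTRNA1-1, VTRNA1-2 and VTRNA1-3, which are RNA polymerase III transcripts of the vault particle, differed by 1.25, 0.70 and 0.64 on the log2 scale, whereas VTRNA2-1 differed by -0.52. VTRNA1-1 and VTRNA1-2 were dim, with log2 signals of -3.73 and -2.48 and of -3.14 and -2.45. Over the 4 vault RNA probes the median was 0.67, or 0.43 under normexp correction, where the highest difference was 0.57. Of 8 measured SNAR probes, for small RNAs of near-identical copies, 7 were higher, with a median of 0.38 (0.15 under loess centring). Of 6 measured probes of spliceosomal RNAs, 4 were higher, with a median of 0.11, though 2 were under loess centring, with a median of -0.07. Among them RNU6ATAC, an RNA of the minor spliceosome, had the lowest difference (-0.14 and -0.97 as log2 signals of substate 1 and substate 2 cells).

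RN7SK, which holds back the elongation factor P-TEFb, differed by 0.40 (0.22 under loess centring) and RPPH1, the RNA of RNase P, by 0.45. RMRP, the RNA of RNase MRP, differed by -0.10, RN7SL1 of the signal recognition particle by -0.11 and the telomerase RNA TERC by -0.11.

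SNORD20, in the nucleolin gene NCL, had the largest Z-score among the SNORD probes (3.34), with processed signals of 3.27 in substate 1 cells and 13.1 in substate 2 cells, and was well above background on neither array. SNORD82 of the same gene was measured on both arrays, with log2 signals that differed by -0.19, and NCL differed by 0.22, or 0.02 under loess centring. SNORD99 differed by -0.65 and its host SNHG12 by -0.42, the lowest value among the noncoding hosts.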
